A study of Mus musculus with 4 samples.

Results

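The mRNA of 9 genes of the hematopoietic niche was followed in the cells of mouse bone and marrow: Cxcl12, Kitl, Lepr, Vcam1, Il7, Angpt1, Flt3l, Thpo and Ptn. They were chosen by symbol, 9 of the 32285 genes counted in each library, and all 9 were found. Of these, 6 (Cxcl12, Kitl, Lepr, Vcam1, Il7 and Angpt1) stood above all other classes in a marrow stromal class marked by adiponectin, and Flt3l was close to its fibroblast level there. Ptn was highest in tendon or periosteum cells and lower in stromal cells than in osteoblasts, chondrocytes and fibroblasts, and few Thpo UMIs were found. Between a young and an old library, the stromal mRNA levels of Cxcl12, Kitl, Lepr and Vcam1 differed little, whereas Ptn was lower in old osteoblasts.

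Blood stem and progenitor cells live in contact with cells that hold them in place and keep them alive. In marrow this work is done mainly by reticular stromal cells that carry the leptin receptor, wrap around sinusoids and release the chemokine CXCL12 and the cytokine KITL. Cells of the osteoblast lineage, arteriolar cells, endothelium and megakaryocytes add further signals, and the factors act through receptors on the blood cells.

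Cells of femur and tibia came from INK-ATTAC mice with no treatment, 1 sample aged 6 months (young) and 1 aged 24 months (old). Both carry a transgene in which a p16 promoter fragment drives an inducible caspase 8, and the inducing drug was not given. The labels do not say how many animals each sample held, so each library counts as 1 sample, and age has no replicate. Cells from enzyme digests of marrow and bone were depleted of blood lineage cells and sorted as live and CD45-, and their transcripts were counted as UMIs (unique molecular identifiers, 1 per captured RNA molecule) in a droplet 3′ library with CD24 antibody tags.

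After the cell filter 10063 young and 5607 old cells remained, with medians of 6385 and 9711 UMIs per cell and 81076421 and 66702846 UMIs in all. The libraries shared 25 barcodes, 19 of them kept in both. Each cell was placed in a class by marker genes that include none of the 9 members, for example Adipoq and Lpl for the stromal class, osteocalcin (Bglap) and Ibsp for osteoblasts and Pi16 and Clec3b for fibroblasts. The stromal class held 2383 young and 1640 old cells, the osteoblast class 1014 and 547, and the fibroblast class 2520 and 1127. In all, 10 classes had at least 50 cells in both libraries. Although the labels call the cells mesenchymal and CD45-, 4 of these were blood classes: erythroid, B lineage, neutrophil and megakaryocyte. No cell met the endothelial rule, so endothelium was not analysed here, and the sort sets the share of every class. Unassigned were 2444 young and 1268 old cells, 1135 and 587 of them because a second class scored too close to the first. Beside each class, levels are given as CPM, the UMIs of a gene per 1000000 UMIs of the class, with 95% intervals that cover counting error only.

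Cxcl12, at chr6:117168535-117181368 in GRCm38.p6, encodes the chemokine that retains stem cells and B progenitors through CXCR4. Its level in stromal cells was 27723 CPM (95% interval 27636 to 27810) in the young library and 23958 (23876 to 24040.1) in the old, both far above every other class. Fibroblasts followed with 1186 and 1731 CPM, and osteoblasts with 775 and 419. Neutrophils stood between, at 4863 and 1140 CPM, with libraries that overlapped the fibroblast range. After every cell was thinned to 2000 UMIs, 99.8% of young and 99.5% of old stromal cells held a Cxcl12 UMI, against 55.4% and 60.5% of fibroblasts and 41.6% (interval 38.4% to 44.8%) and 33.4% (29.3% to 37.6%) of osteoblasts. In erythroid cells, which should lack the gene, the share was 11.6% and 15.7%, with medians of 15031 and 16258 UMIs before thinning. Without thinning the erythroid share was 59.5% and 57.3% and the stromal share 99.7% and 99.5%.

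Kitl, at chr10:100015615-100100416, encodes stem cell factor, the ligand of the receptor KIT. Stromal cells had 1813 CPM (1791 to 1836) young and 2040 (2016 to 2064) old. The next class was pericyte or smooth muscle, a group of 78 and 83 cells, with 276 and 262 CPM, well below stromal cells in both libraries, and neutrophils overlapped it with 323 and 72.0. Osteoblasts had 112 and 73.2 CPM and fibroblasts 21.7 and 38.8, so the order of these 2 classes was the reverse of that for Cxcl12. A Kitl UMI was found in 93.3% and 93.4% of thinned stromal cells, 43.1% and 36.1% of pericyte or smooth muscle cells, 15.5% (interval 13.2% to 18.0%) and 13.2% (10.4% to 16.4%) of osteoblasts and 0.263% and 1.97% of erythroid cells. The unthinned shares were 96.4% and 94.2% for stromal cells, 65.4% and 71.1% for pericyte or smooth muscle cells, 30.2% and 37.1% for osteoblasts and 5.34% and 5.57% for erythroid cells.

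Lepr, at chr4:101717137-101815352, encodes the leptin receptor that names the reticular stroma, and Vcam1, at chr3:116110020-116129688, an adhesion molecule bound by the integrin α4β1 of blood cells. For Lepr, stromal cells had 1538 and 1651 CPM (young and old), neutrophils 273 and 108, tendon or periosteum cells 132 and 89.9, fibroblasts 104 and 73.9 and osteoblasts 59.4 and 44.1. For Vcam1 the stromal level was 1388 and 1445 CPM, against 150.0 and 99.6 in osteoblasts and 101 and 106 in fibroblasts. Stromal cells were thus apart from all other classes for both genes, while osteoblasts and fibroblasts overlapped for Vcam1. After thinning, a Lepr UMI was found in 91.1% of young and 92.8% of old stromal cells and a Vcam1 UMI in 89.4% and 87.0%, against 1.97% or less of erythroid cells for each gene. Before thinning the stromal shares were 96.3% and 95.5% for Lepr and 94.7% and 92.6% for Vcam1, and the erythroid shares 6.11% and 8.22%, and 6.87% and 6.63%.

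Il7, at chr3:7572028-7613760, encodes the cytokine that B and T progenitors need. It was counted at 78.8 CPM (74.2 to 83.5) in young stromal cells and 109 (104 to 115) in old ones, and at 5.14 and 5.71 CPM in fibroblasts and 4.22 and 3.08 in osteoblasts. Pericyte or smooth muscle and B lineage cells had no Il7 UMI in either library, which after thinning, at a limit of 3 cells of the total, allows up to 4.17% and 3.61% of pericyte or smooth muscle cells and 0.890% and 6.38% of B lineage cells to hold one. Angpt1, at chr15:42424667-42676977, encodes angiopoietin-1, the ligand of the receptor TEK (TIE2). Its stromal level was 200.4 and 178 CPM, and megakaryocytes came next with 99.6 and 116, above fibroblasts with 48.0 and 48.1. In thinned megakaryocytes 26.0% (interval 16.4% to 37.6%) young and 17.3% (8.23% to 30.3%) old held an Angpt1 UMI, against 30.4% and 26.9% of stromal cells and 1.58% and 0.843% of erythroid cells. Before thinning the megakaryocyte shares were 58.4% and 64.4%, and 59 of 393 young and 49 of 377 old erythroid cells held one. Angpt1 UMIs per 100 Cxcl12 UMIs numbered 28.1 and 48.0 in megakaryocytes and 0.723 and 0.744 in stromal cells.

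Flt3l, at chr7:45131183-45136490, encodes the FLT3 ligand of early lymphoid and dendritic progenitors, and Thpo, at chr16:20724454-20734511, thrombopoietin, a cytokine that maintains stem cells and platelets. Flt3l was at 19.0 and 18.7 CPM in stromal cells, 17.5 and 15.1 in fibroblasts and 12.1 and 10.3 in osteoblasts. Its stromal and fibroblast intervals overlapped. Lower levels were found in chondrocytes (4.30 and 2.92 CPM, from 9 and 4 UMIs). Pericyte or smooth muscle cells had 4.79 and 1.32 CPM, from 2 and 1 UMIs. Thpo gave 49 UMIs in all young cells and 55 in all old ones, 21 and 38 of them in fibroblasts, where the level was 0.973 and 2.55 CPM. Stromal cells held 8 Thpo UMIs in the young library and 1 in the old.

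Ptn, at chr6:36714924-36810179, encodes pleiotrophin, a heparin-binding growth factor that acts through PTPRZ1 and syndecans. Tendon or periosteum cells had 791 and 514 CPM, osteoblasts 592 and 216, chondrocytes 339 and 343 and fibroblasts 108 and 144. Stromal cells had 10.1 CPM (8.55 to 11.9) young and 22.3 (19.8 to 24.9) old, below all 5 other mesenchymal classes. Even in osteoblasts a Ptn UMI was found in a minority of cells, 310 of 1014 young and 120 of 547 old, and 50% of its UMIs lay in 35 and 14 cells.

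**Figure D1:**
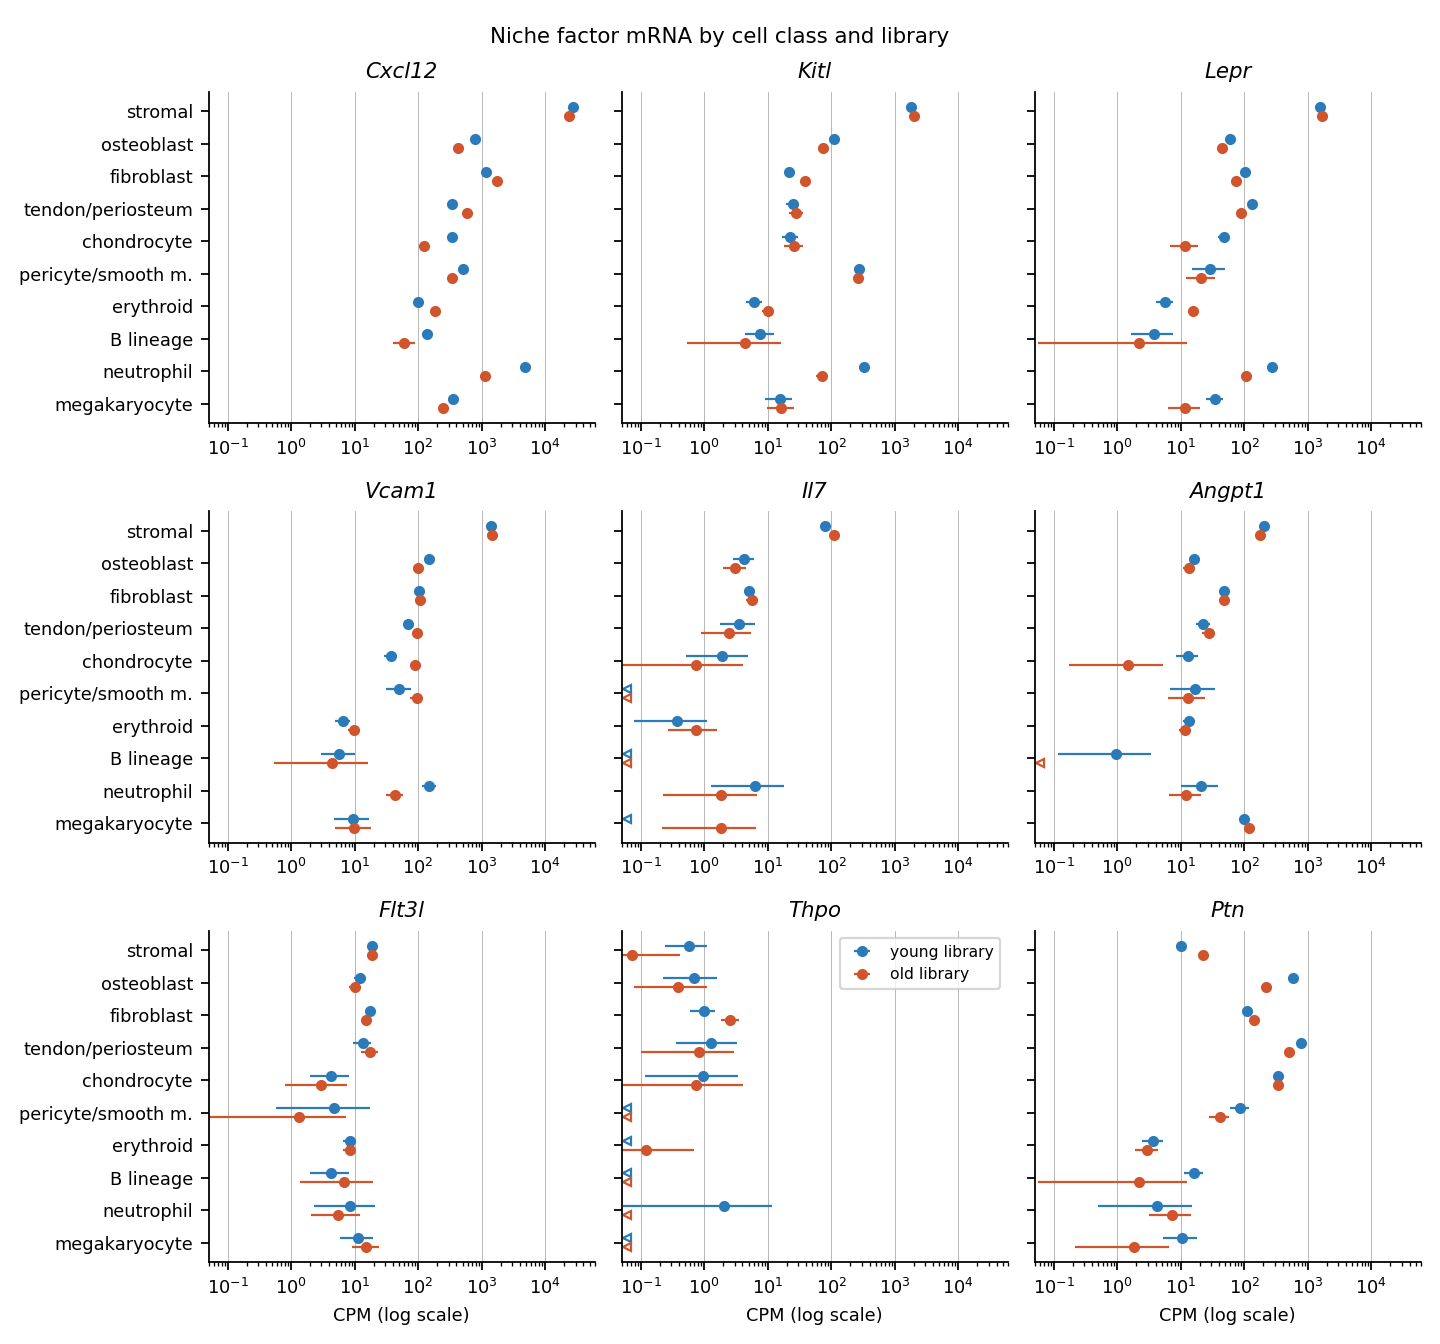
Level of each of the 9 genes (CPM, log axis) in 10 cell classes of the young (blue) and old (orange) library, with bars for 95% exact Poisson intervals and open triangles at the left edge for classes with no UMI. Stromal cells stand apart at the top for Cxcl12, Kitl, Lepr, Vcam1, Il7 and Angpt1, overlap fibroblasts for Flt3l and are low for Ptn, for which tendon or periosteum cells lead, and Thpo is at 2.55 CPM or less in all classes.

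Put as a share of all UMIs of a gene in kept cells, the stromal class, 23.7% of young and 29.2% of old cells, gave 73.7% and 78.8% of the Cxcl12 UMIs and 75.6% and 83.9% of those of Kitl. Its share was 67.4% and 80.1% for Lepr, 66.8% and 75.3% for Vcam1, 69.3% and 82.6% for Il7 and 52.1% and 57.7% for Angpt1. For Ptn it was 0.892% and 3.32%. Over all genes the class held 14103839 of 81076421 young and 13652065 of 66702846 old UMIs, a smaller share than its share of cells. Its Flt3l share, 23.5% and 29.5%, was near the share of cells and above the share of all UMIs. Unassigned cells gave 10.3% to 22.3% of the UMIs of the other members but 37.1% and 35.2% of those of Ptn, so the named classes cover the source of Ptn less fully.

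The promoters of Cxcl12 and Ptn are shown since these genes had the highest and the lowest log2 difference of stromal cells against osteoblasts among the members tested. Windows of Lepr, Kitl and Flt3l and the 2nd of Thpo overlap the annotated gene and are not shown. The sequences are the 250 bases before the gene start in RefSeq (GRCm38.p6), which had an entry for 6 of the 9 genes and none for Vcam1, Il7 and Angpt1. The 4 motifs searched on both strands were an EBF core (CCCNNGGG), a C/EBP core (TTGCNNAA), a TATA box (TATAAA) and a GC box (GGGCGG). Capitals mark matches.
Cxcl12, chr6:117168285-117168534, + strand: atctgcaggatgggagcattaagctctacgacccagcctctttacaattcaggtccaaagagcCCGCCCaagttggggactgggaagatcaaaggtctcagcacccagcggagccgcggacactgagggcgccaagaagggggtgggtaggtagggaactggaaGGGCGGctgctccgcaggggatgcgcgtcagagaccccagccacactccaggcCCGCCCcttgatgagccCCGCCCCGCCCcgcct
Ptn, chr6:36810180-36810429, - strand: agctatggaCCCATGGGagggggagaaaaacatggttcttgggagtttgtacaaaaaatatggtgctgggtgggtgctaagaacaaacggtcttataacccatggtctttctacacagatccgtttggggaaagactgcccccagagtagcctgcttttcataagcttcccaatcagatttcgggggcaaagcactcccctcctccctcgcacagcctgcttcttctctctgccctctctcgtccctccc
The Cxcl12 window had a GC content of 64.4% and 5 GC box matches, the last 2 overlapping by 1 base. The Ptn window had 52.0% GC and 1 EBF core match. Of 32851 promoters of this length, 32.7% held a GC box, 11.8% an EBF core, 9.56% a C/EBP core and 12.4% a TATA box. These matches describe letters only, and neither window held the C/EBP core or the TATA box.

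The design asks first how the factors differ between the stromal class and the other bone cells. UMIs were summed per class and library over 6 mesenchymal classes, giving 12 sums, and compared by edgeR's quasi-likelihood test with library as a block and Benjamini-Hochberg adjustment over 13833 genes. Each class has 1 sum per library. With library as a block, the spread behind these p-values is how class differences vary between the young and the old library, pooled over the 6 classes. It is not a spread between animals. Thpo did not pass the filter on low counts, leaving 8 of the 9 members.

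Against osteoblasts, 7 members were higher in stromal cells and Ptn was lower, where 19.8% of all genes tested were called higher and 19.6% lower. The difference was 5.25 ± 0.51 on the log2 scale (SE) for Cxcl12 (adjusted p = 1.80e-05), 4.76 ± 0.33 for Lepr (1.85e-06), 4.44 ± 0.22 for Il7 (6.35e-07) and 4.15 ± 0.26 for Kitl (1.08e-06). Angpt1 (3.47 ± 0.27, adjusted p = 4.02e-06) and Vcam1 (3.27 ± 0.31, 1.67e-05) followed. Ptn was at -4.77 ± 0.51 (3.72e-05), with log2 ratios of -5.87 in the young library alone and -3.28 in the old. Single-library ratios of the other members were all positive and kept the order stromal over osteoblast. Those of Cxcl12 (5.16 and 5.84), Kitl (4.02 and 4.80), Vcam1 (3.21 and 3.86) and Il7 (4.22 and 5.15) lay more than 1.5-fold from the fitted value in the old library. Single-library ratios are of plain CPM, whereas the fit scales the sums by TMM. Such gaps are therefore not a spread between libraries alone. Flt3l was near the limit (0.53 ± 0.19, adjusted p = 0.0461) and its call was lost in 5 alternatives, among them the fit without the block (0.0557) and DESeq2 (0.127). The median of the 8 members was 3.81, against 0.03 over all genes.

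Against fibroblasts, 6 members were higher in stromal cells and Ptn lower, with 22.6% of all genes called higher and 22.3% lower. Kitl had the widest gap, 5.84 ± 0.28 (adjusted p = 1.45e-07). Lepr (4.04 ± 0.31, adjusted p = 2.72e-06), Cxcl12 (3.94 ± 0.48, 6.65e-05), Il7 (3.93 ± 0.19, 3.48e-07) and Vcam1 (3.61 ± 0.31, 6.23e-06) lay close together. Angpt1 differed less (1.80 ± 0.23, adjusted p = 0.000113) and Flt3l not detectably (0.04 ± 0.17, 0.864). Ptn was at -3.12 ± 0.47 (0.000339). The Cxcl12 ratio was 4.55 in the young library alone. The median of the members was 3.77, against 0.04 over all genes.

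Between osteoblasts and fibroblasts the members split. Kitl (1.69 ± 0.24, adjusted p = 0.000381) and Ptn (1.65 ± 0.44, 0.0156) were higher in osteoblasts, where 14.5% of all genes were, and Angpt1 (-1.66 ± 0.26, 0.000699) and Cxcl12 (-1.30 ± 0.43, 0.0426) were lower, where 16.2% were. Lepr (-0.71, adjusted p = 0.0861), Flt3l (-0.48, 0.0744), Il7 (-0.51, 0.161) and Vcam1 (0.34, 0.417) did not pass. The libraries disagreed in size: the log2 ratio was 2.36 young and 0.92 old for Kitl, 2.45 and 0.58 for Ptn, and -0.61 and -2.05 for Cxcl12. The call on Cxcl12 was lost without the block (adjusted p = 0.0649), with classes set by clusters (0.0737) and with no limit on the second class, an alternative chosen after seeing the data (0.428).

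**Figure D2:**
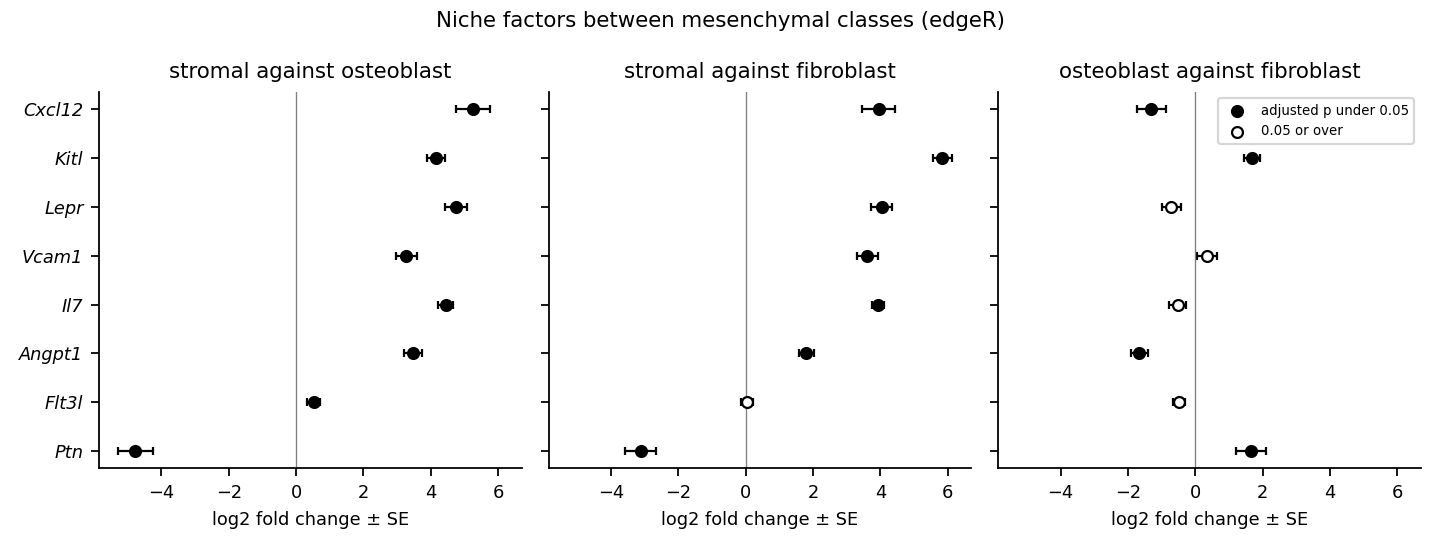
Log2 fold changes with SE (edgeR) of the 8 members tested, for stromal against osteoblast, stromal against fibroblast and osteoblast against fibroblast cells, with filled points for adjusted p under 0.05. Of these, 6 members lie far to the right in the first 2 panels and Ptn far to the left, while in the third panel Kitl and Ptn lie right of 0 and Cxcl12 and Angpt1 left.

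Stromal marker RNA was also present outside the stromal class. The 6 stromal markers summed to 11607 and 10687 CPM (young and old) in stromal cells, 2570 and 2275 in neutrophils, 241 and 396 in fibroblasts, 204 and 142 in osteoblasts and 35.5 and 57.0 in erythroid cells, and none of the 6 was at 0 in these classes. Adipoq alone was at 97.3 and 62.8 CPM in neutrophils, a smaller part of the sum than in stromal cells (1407 and 2304). The neutrophil sum alone therefore cannot be read as an amount of stromal RNA, and its source was not tested. Kitl UMIs per 100 Cxcl12 UMIs separate the classes further. They were 6.54 and 8.51 in stromal cells, and the neutrophil (6.64 and 6.32) and erythroid (6.11 and 5.41) ratios lay near these. Osteoblasts (14.4 and 17.5) and pericyte or smooth muscle cells (53.7 and 75.7) stood above the stromal ratio in both libraries, and fibroblasts (1.83 and 2.24) below it. The part of stromal RNA in the neutrophil, erythroid and other low levels was not tested.

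**Figure D3:**
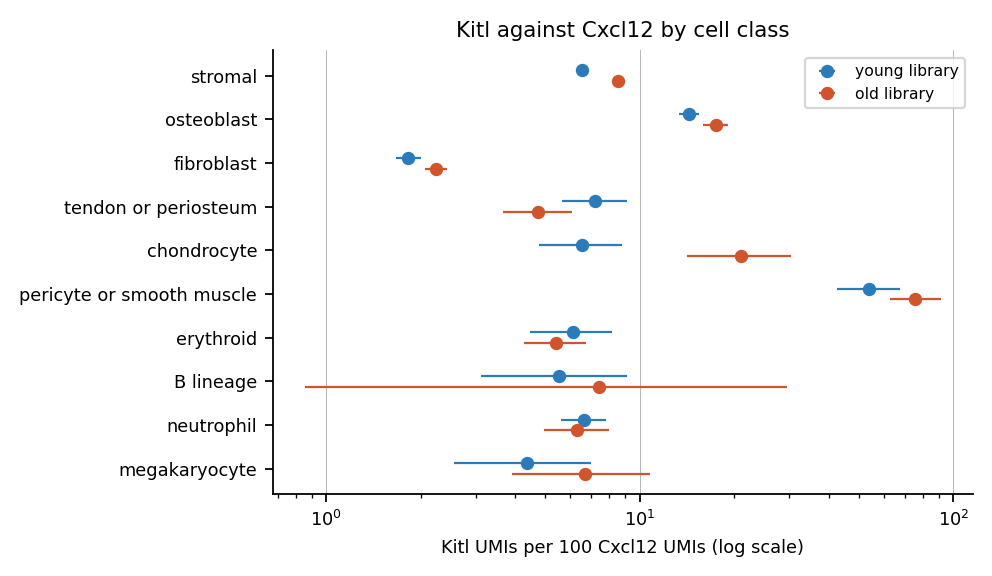
Kitl UMIs per 100 Cxcl12 UMIs (log axis) in 10 cell classes of the young (blue) and old (orange) library, with 95% intervals for counting error. Fibroblasts lie lowest at 1.83 and 2.24, pericyte or smooth muscle cells highest at 53.7 and 75.7, and erythroid cells and neutrophils near the stromal values of 6.54 and 8.51.

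Most stromal cells held the main factors. After thinning, 78.1% of young cells (1721 of 2203) and 77.4% of old ones (1147 of 1481) held a UMI of all 4 of Cxcl12, Kitl, Lepr and Vcam1. Each of the 4 was found in 87.0% or more of these cells, so a high joint share follows without any link between the genes. The 10th, 50th and 90th percentiles of Cxcl12 were 38, 57 and 76 UMIs per thinned cell in the young library and 27, 47 and 68 in the old. For Kitl they were 1, 3 and 7 UMIs young and 1, 4 and 8 old, and for Lepr 1, 3 and 6 in both. Rank correlations of members within these cells stayed at or under 0.21, weak values in sparse counts. A UMI of Cxcl14, a chemokine of a subset of reticular stroma, was found in most of these cells, 2057 of 2203 young and 1422 of 1481 old. Cells with it had more Cxcl12 than the 146 young and 59 old cells without (log2 ratio 0.33 young, 0.49 old). They also had more Vcam1 (0.31 and 0.70). Ptn went the other way in the old library (-1.76), with 20.8 CPM in cells with a Cxcl14 UMI and 70.6 in the 59 without. A Grem1 UMI (a BMP antagonist) went with differences of 0.28 or less for the 8 members other than Thpo, which was not compared. Both splits were chosen after seeing the data.

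Within the osteoblast class, cells with osteocalcin above the median of 8 thinned UMIs had less of several members than the rest, in both libraries. The log2 ratio of high over low osteocalcin was -1.33 young and -0.91 old for Cxcl12, -1.34 and -0.58 for Kitl, -1.28 and -0.70 for Vcam1 and -0.50 and -1.02 for Ptn. Osteocalcin is a product of mature osteoblasts and also a marker that set the class. The split therefore also sorts cells by how well they meet the class rule. It cannot tell osteoblast maturity from likeness to the class, and it was chosen after seeing the data.

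The second question of the design is age, read from 1 library a side with no test. A member is named where it differed at least 2-fold with 20 or more UMIs. In stromal cells 8 members had enough UMIs and 1 was named, with 4.62% of all genes past the same limits. Kitl (log2 of old over young 0.17, interval 0.14 to 0.19), Lepr (0.10) and Vcam1 (0.06) lay slightly above 0, and Cxcl12 (-0.21, interval -0.22 to -0.20) and Angpt1 (-0.17) slightly below. Il7 was higher in the old library, 109 against 78.8 CPM (0.47, interval 0.36 to 0.58). The named member was Ptn, with 143 UMIs young and 304 old (1.14, interval 0.84 to 1.43). A single young cell held 44 of its 143 UMIs, 39 of 2383 young and 134 of 1640 old cells had any, and the ratio was 1.60 without the top cells and 0.07 with no limit on the second class, both added after seeing the data.

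In osteoblasts, with 6.48% of all genes past the limits, the named member of 8 was again Ptn, in the other direction. It was counted at 592 CPM young and 216 old (-1.45, interval -1.53 to -1.37), and 229 of 942 young and 72 of 515 old thinned cells held a Ptn UMI, shares with intervals of 21.6% to 27.2% and 11.1% to 17.3%. The ratio stayed between -1.54 and -1.10 in all alternatives, and was -1.71 in cells with osteocalcin above the median and -1.19 in the rest. Cxcl12 (-0.89), Kitl (-0.61), Vcam1 (-0.59) and Lepr (-0.43) were also lower in old osteoblasts, where the median over all genes was -0.13. Over the alternatives these ranged from -1.10 to -0.47 for Cxcl12 and from -0.67 to -0.14 for Kitl. The range was -0.64 to -0.10 for Vcam1 and -0.57 to 0.28 for Lepr, whose sign turned. In cells with osteocalcin above the median the ratios were -0.47 for Cxcl12, -0.03 for Kitl, -0.11 for Vcam1 and 0.35 for Lepr. In the rest they were -0.88, -0.79, -0.68 and -0.71. In fibroblasts, with 4.89% of all genes past the limits, 1 of 9 was named: Thpo, with 21 and 38 UMIs (1.39, interval 0.59 to 2.23). Fibroblast Kitl (0.84), Cxcl12 (0.55) and Ptn (0.41) were higher in the old library and Lepr lower (-0.49).

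The smaller classes rested on few cells. Of 7 members in tendon or periosteum none was named (4.33% of all genes), with Cxcl12 at 0.78 and Ptn at -0.62. In chondrocytes 4 of 6 were (10.4% of all genes): Angpt1 (-3.15, from 27 and 2 UMIs), Lepr (-2.02, from 99 and 16), Cxcl12 (-1.49) and Vcam1 (1.27). A single young chondrocyte held 310 of 717 Cxcl12 UMIs and 1 old one 63 of 122 Vcam1 UMIs, and without the top cells the ratios were -0.83 and 0.47. In pericyte or smooth muscle cells 1 of 5 was named (9.86% of all genes), Ptn at -1.08, with 77.8% of its 36 young UMIs and 71.0% of its 31 old UMIs in 1 cell each. The named pairs of gene and class numbered 8 of 43 in all, and 5 of 40 without the top cells. Among the latter was Cxcl12 in osteoblasts (-1.01), which was not named with all cells.

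**Figure D4:**
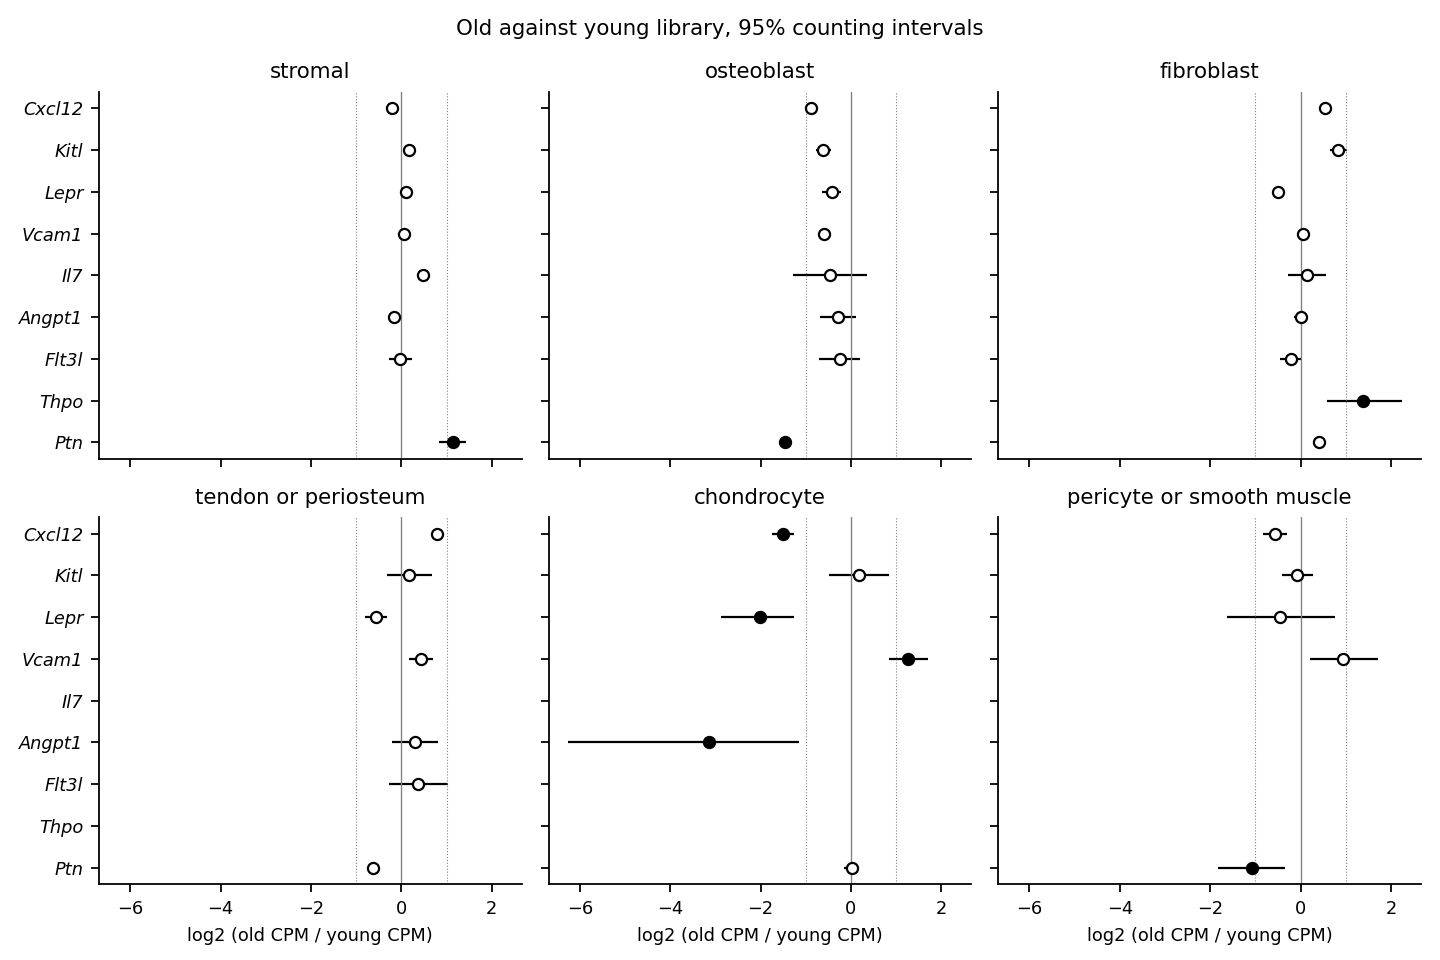
Log2 ratio of old over young CPM for each member with 20 or more UMIs in 6 mesenchymal classes, with 95% counting intervals, dotted lines at 2-fold and filled points for members past it. Stromal members lie close to 0 apart from Ptn at 1.14, osteoblast Ptn lies at -1.45, and the chondrocyte points are widely spread.

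Receptors and partners of the members were measured in the same cells. Of 14 listed, 9 passed the filter, and 2 were higher, 4 lower and 3 not past the test in stromal cells against osteoblasts. Against fibroblasts, 5 were higher and 2 lower, and between osteoblasts and fibroblasts 4 and 2. Over all genes tested, 19.8% were higher and 19.6% lower in stromal cells against osteoblasts. The shares were 22.6% and 22.3% against fibroblasts, and 14.5% and 16.2% between osteoblasts and fibroblasts. Kit, the receptor of KITL, was higher in stromal cells than in osteoblasts (4.37) and fibroblasts (5.47), with 49.5 and 80.9 CPM in stromal and 66.4 and 40.2 in erythroid cells. Ackr3, a scavenging receptor of CXCL12, was highest in fibroblasts (336 and 280 CPM) and lower in stromal cells (log2 difference -6.26), and Tek was also lower there (-6.40). Ptprz1, a phosphatase receptor of pleiotrophin, had 396 and 457 CPM in osteoblasts, and stromal cells lay at -6.55 against them. Sdc3, a syndecan, differed by -3.08 in the same comparison. The 2 receptors named after their values were seen had their highest levels in blood classes: Il7r in B lineage cells (513 and 401 CPM) and Cxcr4 in B lineage cells (137 and 147) and neutrophils (114 and 202). Leptin (Lep) had no UMI in any class.

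**Figure D5:**
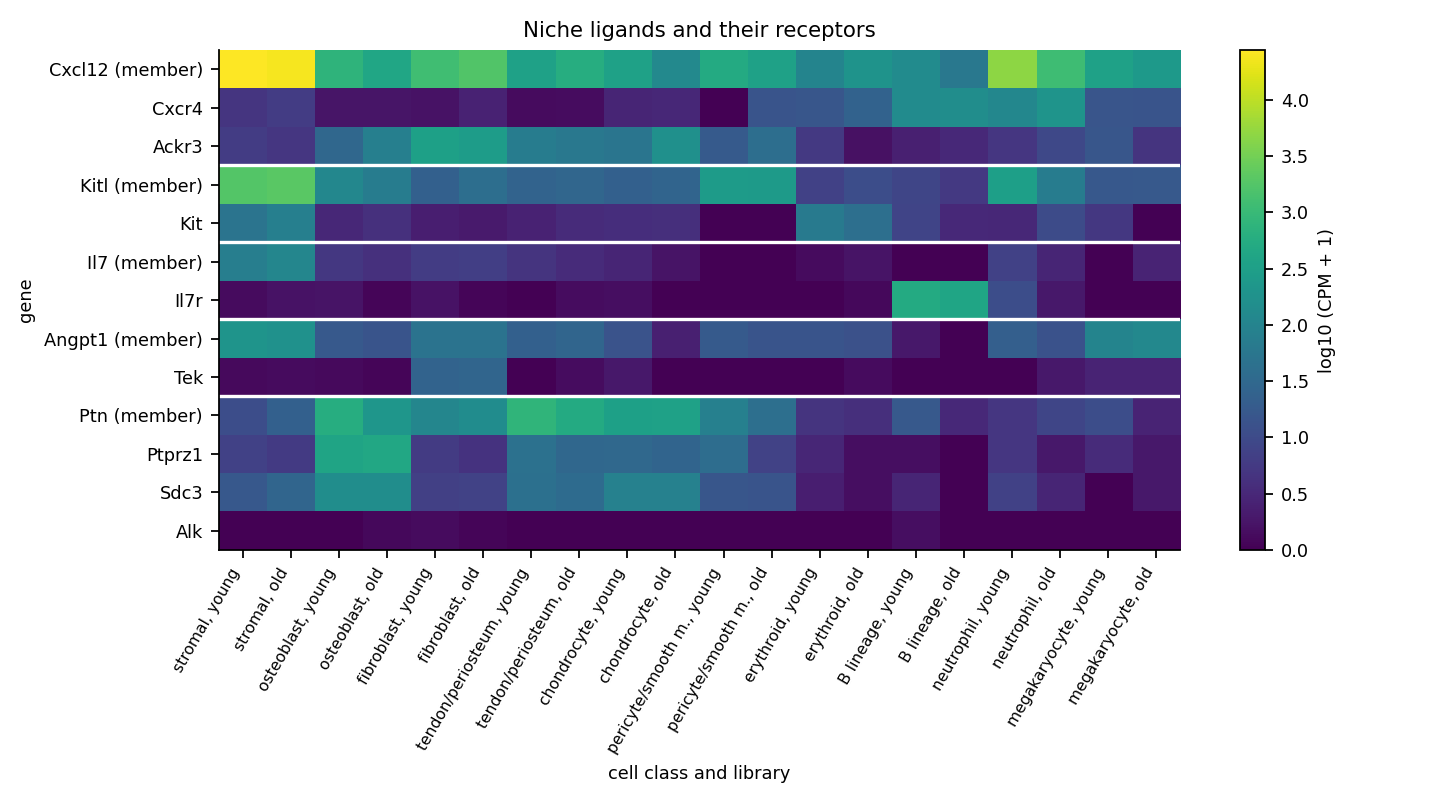
Levels of members and of their receptors (log10 of CPM + 1, colour) by cell class and library, with white lines between ligand groups. Cxcl12, Kitl, Il7 and Angpt1 are brightest in stromal cells, Ptn and Ptprz1 are bright together in osteoblasts, and Il7r is bright in B lineage cells.

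Beside the lists below, 19.8% of all genes tested were higher and 19.6% lower in stromal cells than in osteoblasts. Against fibroblasts the shares were 22.6% and 22.3%. Of 7 transcription factors of reticular stroma, 6 were higher in stromal cells than in osteoblasts and none lower. The largest differences were for Pparg (6.03), a regulator of fat cells, Ebf3 (4.94), a factor of reticular stroma, Cebpa (3.85), which also acts in fat cells, and Foxc1 (2.21). Against fibroblasts 5 were higher, Ebf3 (4.38), Pparg (3.51), Cebpa (3.23) and Foxc1 (2.58) most, and 1 was lower, Prrx1 (-1.07), a limb mesenchyme factor named after its value was seen. Of 21 other secreted or surface factors with 1 entry each in the files, 17 were tested (Ccl19 had 2 entries and was left out). Of these, 10 were higher and 2 lower in stromal cells than in osteoblasts, led by Il34 (4.80), a ligand of the CSF1 receptor, Gas6 (3.51), Il15 (2.67) and Tgfb1 (-2.64). Against fibroblasts 8 were higher and 6 lower, with Angpt2 (4.50), a partner and antagonist of angiopoietin-1, and Il34 (4.48) up, and Ccn3 (-6.52) and the cytokine Il6 (-4.10) down. Medians of the lists against osteoblasts were 0.03 for receptors, 1.58 for secreted factors and 2.21 for transcription factors, where all genes had 0.03.

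Over 20 sums of 10 classes, the genes other than members, among 12605, whose log CPM followed Cxcl12 most closely were Ebf3 (Pearson r 0.97), Ggt5 (0.966), Csmd1 (0.956), Dpep1 (0.953) and Arrdc4 (0.948). For Kitl they were Epas1 (0.949), Adap2 (0.941), Adap2os (0.936), Prrg2 (0.934) and 1500009L16Rik (0.934), and for Ptn Pdgfrl (0.964), Tmem119 (0.952), Armh4 (0.95), Col8a2 (0.944) and Postn (0.943). Among the members, Cxcl12 was most like Lepr (0.956) and least like Ptn (-0.039). These correlations describe sums that come in pairs from the same libraries.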

How the data were processed

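CITE-seq mRNA counts of 1 young and 1 old library were used, and the CD24 antibody counts were not. The values deposited by the authors are raw UMI counts by gene and barcode, aligned to mm10 with Cell Ranger per the submitters' notes (6.1.1 per the file headers), for barcodes called as cells, with no normalization. The submitters' notes also name R 4.0.3 and Seurat 4.0. A 3′ library does not separate isoforms, and free RNA in a droplet is counted with the cell.

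Cells with at least 200 genes and at most 20% mitochondrial UMIs were kept. Each marker's share of a cell's UMIs was divided by the 90th percentile of that share among cells with the marker, and capped there. The score of a class was the mean over its markers. A cell took the best class where at least 2 markers had a UMI, the score was over 0.05 and the next class scored at most 0.5 times as much. In all 10 classes used, 2 to 5 of the class's own markers were among its top 10 genes by fold and none of another class was. The rule that set the classes favours this outcome, so it is no check of the names, which mean a likeness only. Scrublet (scanpy 1.11.5) called 269 young and 57 old doublets, which were kept, with removal as an alternative.

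UMIs were summed per class and library and tested with edgeR 4.0.16 (R 4.3.3; TMM, filterByExpr, two-sided quasi-likelihood test, 5 residual degrees of freedom, threshold 0.05 on the Benjamini-Hochberg adjusted p) with library as a block, since all classes of a library come from the same sample. The script was first tested on simulated data. For age, CPM have exact Poisson intervals, log2 ratios exact binomial ones and shares of cells exact Clopper-Pearson ones, all 95%. Shares of cells used cells thinned to 2000 UMIs, leaving out 770 young and 496 old cells. Likeness was Pearson's r of log2 (CPM + 5). Alternatives were DESeq2 1.42.0, no filter, no block, the pair of classes alone, 3 markers, clusters, a 10% mitochondrial limit, thinning, the mean over cells and TMM scaling. All 9 members are named. Of the listed genes at most 4 per list and comparison are, those with the largest absolute log2 fold change past the threshold. Prrx1, Il7r and Cxcr4, named after their values were seen, are outside this rule. Members and lists were chosen with earlier results of these data known.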

Additional observations from a re-analysis of the deposited data

Results flagged for a closer look

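For 5 members the old over young ratio had opposite signs in a pair of classes, with 20 or more UMIs and with both 95% counting intervals away from 0. The pair farthest apart is given for each. These differences were not tested, since each age has 1 library. Ptn was higher in old stromal cells and lower in old osteoblasts, a gap of 2.59 on the log2 scale. Kitl was higher in old fibroblasts and lower in old osteoblasts (gap 1.45). The other gaps rest on chondrocytes, of which there were 220 young and 85 old: Cxcl12 in tendon or periosteum cells against chondrocytes (2.28), Lepr in stromal cells against chondrocytes (2.12) and Vcam1 in chondrocytes against osteoblasts (1.86).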

How the results depend on the processing

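Members past the test numbered 7 or 8 in stromal against osteoblast cells and 7 or 8 in stromal against fibroblast cells in all alternatives. Between osteoblasts and fibroblasts they numbered 4, but 7 when 3 markers were asked for, 6 with only the pair of classes, 5 with the 10% mitochondrial limit, after thinning and with no filter on low counts, and 3 without the replicate block. Over all genes, 2006 were called higher and 2241 lower of 13833 in the main fit, and 1843 and 2060 without the block. They numbered 2290 and 2661 of 14301 with 3 markers and 2209 and 2569 of 13531 with only the pair. With the 10% mitochondrial limit they numbered 1914 and 2177 of 13723, after thinning 1280 and 1516 of 10447, and with no filter 2159 and 2532 of 22488. Without the block Flt3l in stromal against osteoblast cells (adjusted p = 0.0557) and Cxcl12 in osteoblast against fibroblast cells (0.0649) lost their calls. Flt3l also lost its call with the 10% mitochondrial limit (0.0510), with doublets removed (0.0526), after thinning (0.300) and with DESeq2 (0.127). Members at least 2-fold apart between ages numbered 8 of 43, and 4 of 37 with 3 markers, 4 of 35 after thinning and 5 of 40 without the cell with most UMIs of the gene, the last added after seeing the data. Among the pairs at least 2-fold apart the sign turned for Lepr in chondrocytes after thinning (0.16) and for Ptn in pericyte or smooth muscle cells with 3 markers (1.22), and signs of smaller ratios turned too, such as that of osteoblast Lepr (-0.57 to 0.28). Stromal Ptn ranged from 0.07 to 2.13. The causes were not tested. With 3 markers 47 old chondrocytes remained and that class was left out. Single-library ratios, which carry no test, turned no called difference. Depth limits Thpo (49 and 55 UMIs) and the classes of under 100 cells, and age cannot be told apart from library.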

Other observations

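In unassigned cells Cxcl12 stood at 5243 CPM in the young library and 3775 in the old, Kitl at 333 and 257 and Lepr at 364 and 253. The Ptn level of these cells, 305 and 224 CPM, was above that of fibroblasts (108 and 144).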
